A study of Mus musculus with 16 samples.

Results

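A group of 69 genes, of 27179 in the count table, stood higher 12 h after mouse embryonic stem (ES) cells were released from naive pluripotency than at the start or at 40 h. In 57 of them 12 h was the highest of the 4 times sampled, and 12 were higher at 24 h than at 12 h in at least 1 medium. Members were chosen by their level in CPM, a gene's reads scaled to the total of its library. The mean CPM of both replicates at 12 h had to be at least 10, and at least 2 times the means at 0 h and at 40 h, in each of 2 culture histories. The nuclear receptor gene Nr0b1 is one of the members. Since these levels chose the genes, the excess of 12 h over 0 h and 40 h, and the order of 0 h and 40 h, are given as a description, with no p-value. The level at 24 h and the differences between the culture histories played no part in the choice.

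The study profiled RNA of mouse ES cells in 16 libraries, in 8 groups of 2 replicates each. Cells called 2iLIF had been kept in serum-free medium with the cytokine LIF and 2i, meaning 3 uM CHIR99021, which blocks the kinase GSK3, plus 1 uM PD0325901, which blocks MEK. Cells called 2iSL had been kept in serum/LIF+2i, with the same inhibitors and LIF in medium with 10% serum. Exit from the naive state was started by washing the cells and withdrawing serum, 2i and LIF, and RNA was taken after 12, 24 or 40 h, with cells at 0 h as controls. Cells from 2iLIF stayed in their base of DMEM/F-12 and Neurobasal medium. Cells from 2iSL moved to a mix of glutamine-free DMEM and Neurobasal medium with glutamine added. An effect of the earlier serum and one of the exit base therefore cannot be told apart. Glutamine was listed at 2 mM for all 16 libraries, those of 2iLIF included. All cells had been adapted from serum/LIF culture on gelatin, and the cell line, its genotype and the number of clones were not given in the sources used here. The labels' protocol mentions 12 h for 2iLIF but not for 2iSL, while samples of both were titled 12 h, and the titles were followed. Nothing in the labels says that replicates were separate cultures, so the p-values measure the spread between these libraries, which may be technical.

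Naive ES cells resemble the epiblast of the embryo before implantation, and LIF with 2i holds them there. Of these, 2i blocks ERK signalling and spares beta-catenin from breakdown by GSK3. On withdrawal, ERK and other signals return, the naive transcription factors are lost over the next day or more, and the cells pass into a formative state that precedes lineage choice. Nr0b1, also called Dax1, encodes an orphan nuclear receptor without the usual DNA-binding domain that binds and restrains other nuclear receptors such as Nr5a2, and it has been linked to Oct4 and Nanog in ES cells. Several other members code for ligands or regulators known from the early embryo, among them Bmp4, Inhbb and the BMP-responsive genes Id1 and Id3.

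Total counts ran from 5931381 to 11142744 per library, and replicates of a group correlated across genes with r between 0.996 and 0.997 (log2 CPM). The defining ES cell markers were present in all libraries, with none of the 8 at 0 counts. Their summed level was itself highest at 12 h, at 5391 and 5434 CPM in 2iLIF against 3588 to 5207 CPM at the other times, and at 5998 and 6123 CPM in 2iSL against 4182 to 5063 CPM. The part of these markers in the members' levels was not tested. Markers of other cell types summed to 14.3 to 90.2 CPM for neuroectoderm (6 genes), 2.80 to 39.1 for mesoderm (5), 0.302 to 16.7 for trophectoderm (5), 2.90 to 17.4 for primitive endoderm (7) and 1.75 to 10.5 for fibroblasts (6). None of these 5 sums was highest at 12 h in both media. Foxa2, Sox7, Mesp1, Gsc, Neurog2, Hes5, Zfp521, Hand1, Elf5, Col1a2, Col3a1, Postn and Lum were each at 0 counts in at least 1 group. Reads of the ribosomal locus Rn45s and of Lars2 made up 5492 to 14639 CPM, except in replicate 1 of 2iSL at 24 h with 22692 CPM. In bulk RNA, fewer cells of a type and less RNA per cell cannot be told apart.

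All 69 genes passed the filter on low counts, which left 14288 genes for testing. The rule was met by 83 genes in 2iLIF, of which the 69 are 83.1%, and by 130 in 2iSL, of which they are 53.1%. Just inside the threshold lay Dcaf12l1, whose smallest ratio of the 12 h level to 0 h or 40 h in either medium was 2.001, Htra1 with 2.001 and Clmp with 2.02. Just outside lay Slc29a1 with 1.9997, Ppm1j with 1.98 and Tcea3 with 1.98. Mean levels at 12 h, averaged over the media, ran from 10.3 CPM to 429 CPM with a median of 32.9. The median ratio of 12 h to 0 h was 3.62 in 2iLIF and 3.59 in 2iSL, and that of 12 h to 40 h was 4.25 and 5.05. Corrected for gene length, as TPM (CPM divided by length and rescaled to a common total), the most abundant members at 12 h were Septin1 with 619.5 TPM, Nr0b1 with 543 and Csrp2 with 465, against a median of 28.9 TPM over the 69. Exons of 13 members share bases with a gene on the opposite strand that was also counted, namely Apol6, Bmp4, Ccl25, Ccnd2, Cd37, Enox1, Eras, Exoc3l, Kifc3, Mcam, Mical1, Rapgef3 and Septin1. Since the strand setting of the counting was not given in the sources used here, it is not known whether reads of such pairs were told apart, and these 13 levels are uncertain. Gm8909, a gene like those of the class I histocompatibility complex, is uncertain because of its near-identical copies.

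**Figure D1:**
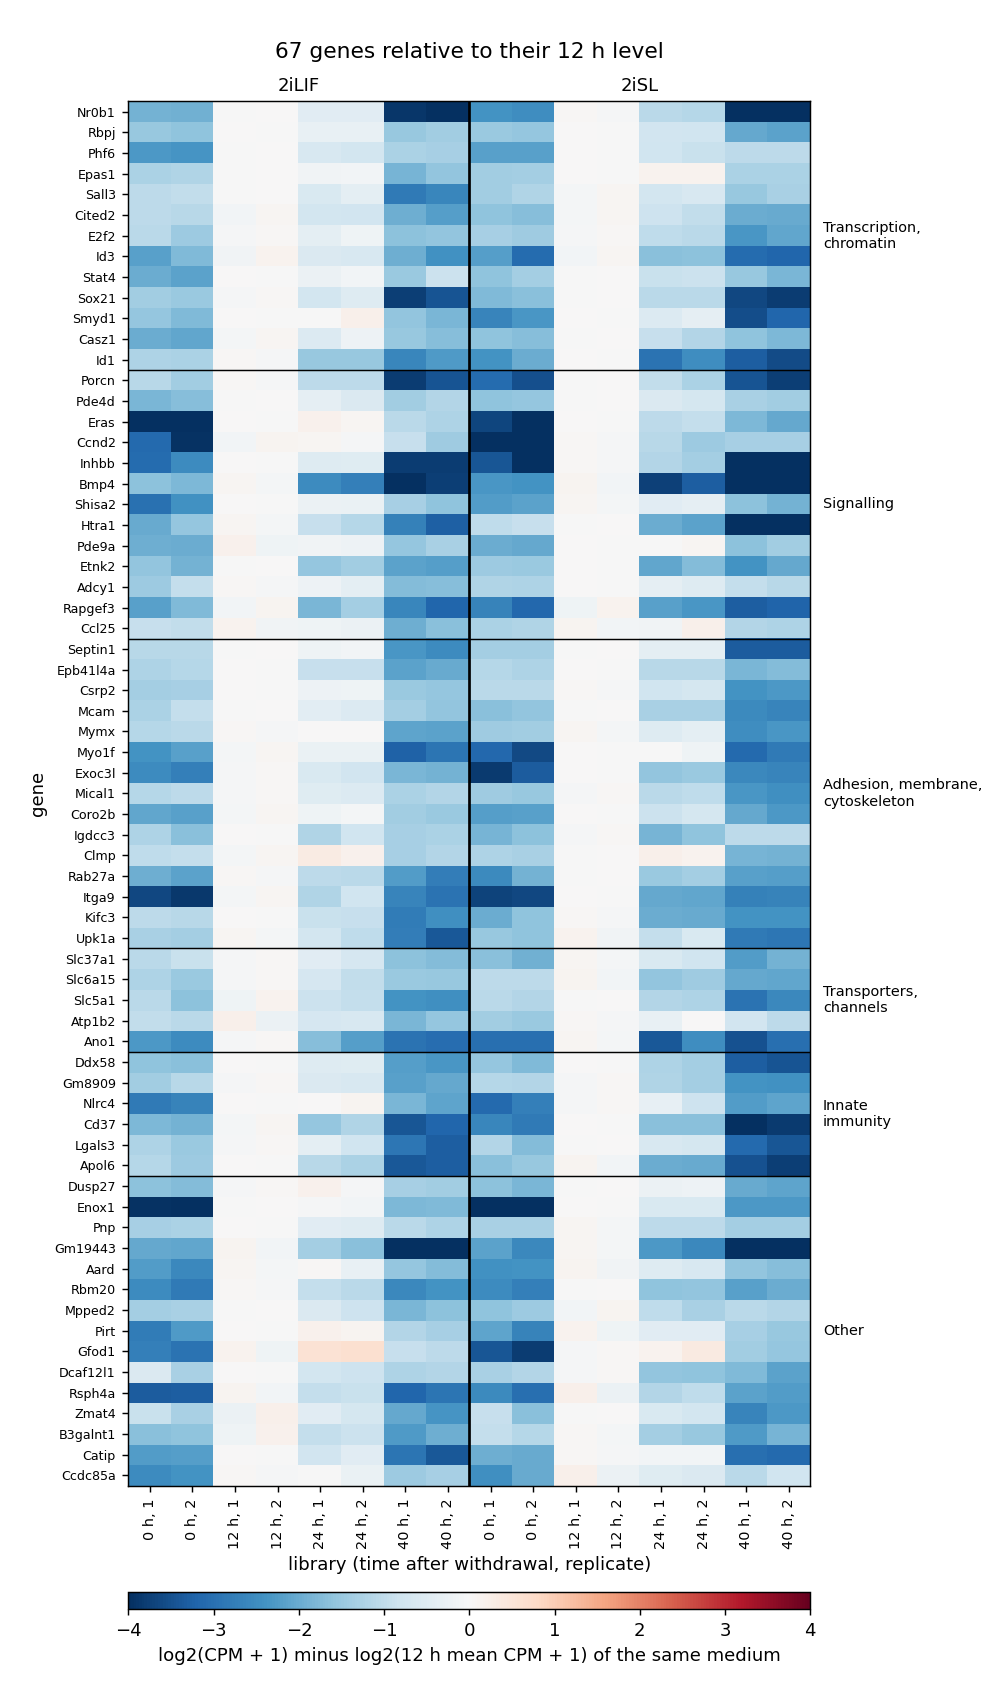
Level of each of 67 of the 69 genes (rows, grouped by role and ordered by CPM at 12 h) in each of the 16 libraries (columns), as log2(CPM + 1) minus log2(mean CPM at 12 h + 1) of the same medium, with colours ending at 4 on either side. The 12 h columns are near 0 by construction, and the 0 h and 40 h columns are blue by the rule that chose the genes. At 24 h 62 of the 69 genes kept a smaller share of the 12 h level in 2iSL than in 2iLIF, a count not made over all genes.

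The rule did not use the 24 h libraries, but it chose genes for a high level at 12 h, which favours a lower level at 24 h. The place of 12 h among the 4 times is therefore a description. In 57 of the 69 genes the mean at 12 h was above that at 24 h in both media, so 12 h was the highest of the 4 times in each. The other 12 genes were higher at 24 h than at 12 h in at least 1 medium. In 2iLIF these were Dusp27, Mymx, Eras, Clmp, Ccnd2, Nlrc4, Smyd1, Pirt and Gfod1, and in 2iSL Epas1, Clmp, Pde9a, Gfod1 and Ccl25. Clmp, coding for a junctional adhesion molecule, and Gfod1, an oxidoreductase-like gene, had the higher mean at 24 h in both media. Gfod1 in 2iLIF had 1.52 and 1.18 CPM at 0 h, 17.8 and 14 CPM at 12 h, 24 and 25.5 CPM at 24 h, and 7.89 and 7.11 CPM at 40 h. Gfod1 in 2iSL had 0.864 and 0.438 CPM at 0 h, 18.5 and 19.8 CPM at 12 h, 21.3 and 24.9 CPM at 24 h, and 6.73 and 5.94 CPM at 40 h. In both media both 24 h libraries of Gfod1 lay above both 12 h libraries.

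The media differed in how much of the 12 h level was left at 24 h. The median share was 67.4% in 2iLIF (range 12.6% to 156%) and 48.3% in 2iSL (range 6.56% to 121%). Over the 8948 genes with at least 10 CPM at 12 h in both media, the median share was 99.2% in 2iLIF and 99.8% in 2iSL. These shares have as their base the 12 h level that the rule chose to be high, in both media alike. Of the 69 genes, 62 kept a smaller share in 2iSL than in 2iLIF and 7 a larger one, a count that was not made over all genes.

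**Figure D2:**
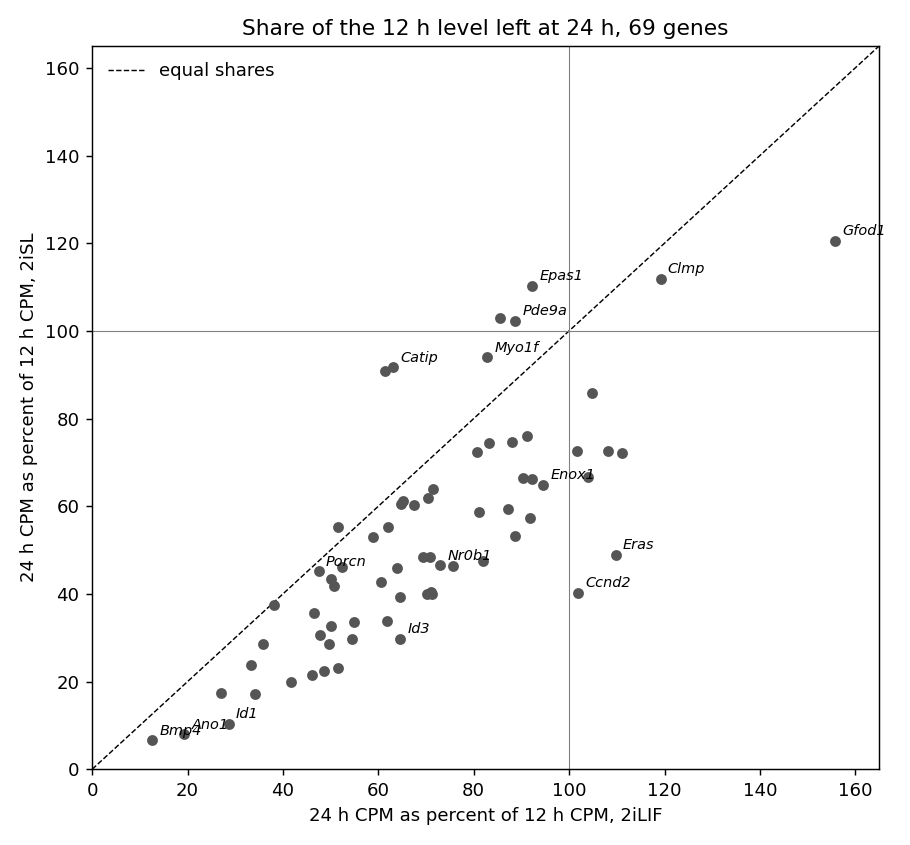
Mean CPM at 24 h as a percent of mean CPM at 12 h in 2iLIF (horizontal) and in 2iSL (vertical), 1 point per gene for the 69 genes, with the dashed line marking equal shares and grey lines marking 100%. Most points, 62 of 69, lie below the dashed line, a count not made over all genes. Bmp4 lies lowest and Gfod1 highest in both media.

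Among the transcription and chromatin regulators (14 members), Nr0b1 had the highest level. It lies on the X chromosome at chrX:86191775-86195947 of GRCm38, the assembly also called mm10. In 2iLIF, Nr0b1 stood at 117 and 113 CPM at 0 h, 431 and 436 CPM at 12 h, 319 and 314 CPM at 24 h, and 28.5 and 25.2 CPM at 40 h. In 2iSL it stood at 79.2 and 75.7 CPM at 0 h, 441 and 407 CPM at 12 h, 202 and 192 CPM at 24 h, and 10.2 and 9.37 CPM at 40 h. Its level at 12 h was 3.76 times the start in 2iLIF and 5.47 times in 2iSL, and the libraries of the 4 times did not overlap in either medium. By 40 h Nr0b1 was below its starting level as well, with a log2 fold change of 40 h against 0 h of -2.16 ± 0.07 in 2iLIF and -3.05 ± 0.09 in 2iSL.

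The libraries of the media overlapped for Nr0b1 at 12 h, where the log2 difference of 2iSL against 2iLIF was -0.04 ± 0.04 (SE; edgeR adjusted p = 0.542). At 24 h they lay apart, with a difference of -0.71 ± 0.04 (SE; edgeR adjusted p = 5.37e-29), the smallest p among the members at that time. The step from 12 to 24 h differed between the media, with a log2 difference of 2iSL minus 2iLIF of -0.67 ± 0.06 (SE; edgeR adjusted p = 8.21e-18). That step was compared after the values had been seen and uses the 12 h libraries of the rule. Its p-value is therefore not free of the choice of genes. At 24 h Nr0b1 kept 73% of its 12 h level in 2iLIF and 46.5% in 2iSL.

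The 250 bases before the annotated start site of Nr0b1 are shown with those of Bmp4 and Id3, a member of the signalling genes and a known target of BMP signals described next, to set 3 members with different 24 h levels side by side. Sequences are RefSeq's, on GRCm38.p6, written 5′ to 3′ on the gene's strand, and end at the base before the start site. Capitals mark the matches to 9 motifs searched on both strands, each spelled out after the sequences.
Nr0b1, chrX:86191525-86191774, plus strand: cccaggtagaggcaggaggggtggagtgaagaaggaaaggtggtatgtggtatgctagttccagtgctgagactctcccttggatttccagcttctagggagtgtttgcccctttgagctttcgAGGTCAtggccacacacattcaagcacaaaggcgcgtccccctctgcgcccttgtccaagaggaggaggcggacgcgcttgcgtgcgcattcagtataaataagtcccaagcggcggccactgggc
Bmp4, chr14:46390670-46390919, minus strand: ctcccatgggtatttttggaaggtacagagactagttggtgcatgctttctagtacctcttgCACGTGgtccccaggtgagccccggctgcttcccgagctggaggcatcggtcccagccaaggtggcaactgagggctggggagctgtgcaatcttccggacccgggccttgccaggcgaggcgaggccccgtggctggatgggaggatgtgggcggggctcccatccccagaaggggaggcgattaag
Id3, chr4:136143572-136143821, plus strand: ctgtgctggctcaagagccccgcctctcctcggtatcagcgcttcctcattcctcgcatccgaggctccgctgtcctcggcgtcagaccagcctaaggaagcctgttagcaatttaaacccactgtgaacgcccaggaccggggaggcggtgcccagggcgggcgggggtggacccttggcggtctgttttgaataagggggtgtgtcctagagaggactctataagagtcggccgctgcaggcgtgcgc

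The match in Nr0b1 is AGGTCA, the core that many nuclear receptors recognise, with its first base at -126 from the start site. The match in Bmp4 is CACGTG, the E-box, at -188, and Id3 had no match. AGGTCA was added to the motifs after the Nr0b1 sequence had been read. Of the members, 43 had promoter windows in the RefSeq table, 52 windows in all, and AGGTCA was in 15.4% of them against 10.9% of the 13892 windows of all genes tested. CACGTG was in 11.5% against 8.32%, and TGACGTCA in 1.92%, which is the Mcam window, against 2.56%. The other 6 motifs, each searched in the same windows, had 0 matches in members. Over all genes tested, TGANTCA was in 4.27% of windows, TCAAGGTCA, which contains AGGTCA, in 0.252%, ATGCAAAT in 1.27%, CTTTGAT in 2.30%, CCGGAAGT in 5.51% and TTCCNGGAA in 0.957%. A match is only a run of letters, and none of these shares was tested.

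Another regulator of this group was Rbpj, the DNA-binding partner of the Notch receptors. Rbpj stood at 95.4 and 88.6 CPM at 0 h, 277 and 267 CPM at 12 h, 221 and 220.1 CPM at 24 h, and 94.8 and 102 CPM at 40 h in 2iLIF. In 2iSL it stood at 114 and 111 CPM at 0 h, 325 and 322 CPM at 12 h, 192 and 188 CPM at 24 h, and 77.1 and 73 CPM at 40 h. Both 2iSL libraries of Rbpj lay above both 2iLIF libraries at 0 h and 12 h, and below them at 24 h and 40 h. The log2 difference was 0.25 ± 0.04 (SE; edgeR adjusted p = 6.62e-07) at 12 h and -0.24 ± 0.05 (SE; edgeR adjusted p = 6.39e-06) at 24 h.

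Further regulators differed in how they ended. Phf6, an X-linked chromatin protein, had 43 and 41 CPM at 0 h, 214 and 218 CPM at 12 h, 137 and 130.5 CPM at 24 h, and 88.7 and 85.5 CPM at 40 h in 2iLIF, above its start to the end. In 2iSL Phf6 had 37.1 and 36.9 CPM at 0 h, 172 and 168 CPM at 12 h, 97 and 90.5 CPM at 24 h, and 80.9 and 82.3 CPM at 40 h, lower than 2iLIF at 12 h (log2 difference -0.35 ± 0.05) and at 24 h (-0.54 ± 0.06). Sall3, a Spalt-family zinc finger gene, had 48.4 and 50.9 CPM at 0 h, 101 and 102 CPM at 12 h, 66 and 77.2 CPM at 24 h, and 13.5 and 15.9 CPM at 40 h in 2iLIF. Its 2iSL values were 32 and 36.8 CPM at 0 h, 81.3 and 90.1 CPM at 12 h, 51 and 55 CPM at 24 h, and 29.3 and 34.2 CPM at 40 h. At 40 h Sall3 was higher in 2iSL than in 2iLIF by 1.08 ± 0.12 (SE; edgeR adjusted p = 7.57e-14), the opposite of its order at the other 3 times. Epas1, which codes for the hypoxia-inducible factor HIF-2 alpha, stood at 137 and 135 CPM at 12 h and 149 and 151 CPM at 24 h in 2iSL, with both later libraries higher. Cited2, a partner of the co-activators CBP and p300, had means of 83.1 CPM at 12 h and 19.1 CPM at 40 h in 2iLIF, against 69.7 and 16.7 CPM in 2iSL. Sox21, E2f2, Stat4, Casz1 and Smyd1 were less abundant, with means between 15 and 48.7 CPM at 12 h.

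Id1 and Id3, which code for proteins that bind bHLH factors and keep them from DNA, were both members. Id1 lies at chr2:152736251-152737410 and stood at 3.88 and 3.83 CPM at 0 h, 10.9 and 10.2 CPM at 12 h, 3.02 and 3.02 CPM at 24 h, and 0.891 and 1.39 CPM at 40 h in 2iLIF. The 2iSL libraries held 2.45 and 3.5 CPM at 0 h, 17.3 and 16.6 CPM at 12 h, 1.32 and 2.18 CPM at 24 h, and 0.808 and 0.504 CPM at 40 h. Both 24 h libraries of Id1 lay below both 0 h libraries in each medium, but the log2 fold change of 24 h against 0 h did not pass the test in 2iLIF, at -0.37 ± 0.32 (SE; edgeR adjusted p = 0.31). In 2iSL it was -0.78 ± 0.35 (SE; edgeR adjusted p = 0.0424), a call lost under several alternatives, among them DESeq2, scaling by library size alone, the fit without replicate 2 of 2iSL at 0 h (-0.50) and the fit without replicate 1 of 2iSL at 24 h (-0.49). Since the 0 h libraries also entered the rule, the p-values of 24 h against 0 h are not free of the choice of genes. Id3, at chr4:136143822-136145392, had 7.08 and 9.58 CPM at 0 h, 31.4 and 38.8 CPM at 12 h, 23.2 and 22.2 CPM at 24 h, and 8.27 and 5.72 CPM at 40 h in 2iLIF. In 2iLIF it was still above its start at 24 h, with a log2 fold change of 1.41 ± 0.18. It was called higher at 24 h than at 0 h in 2iSL as well, with means of 12.4 and 6.15 CPM. In 2iSL Id3 had 8.21 and 4.09 CPM at 0 h, 38.9 and 44.4 CPM at 12 h, 12.2 and 12.6 CPM at 24 h, and 4.04 and 3.73 CPM at 40 h. The step from 12 to 24 h was steeper in 2iSL for Id1, with a log2 difference of -1.48 ± 0.38 (SE; edgeR adjusted p = 0.00263) that rests on few reads. For Id3 it was -1.15 ± 0.18 (SE; edgeR adjusted p = 7.6e-07). Both step p-values use the 12 h libraries of the rule, in a comparison made after the values had been seen.

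**Figure D3:**
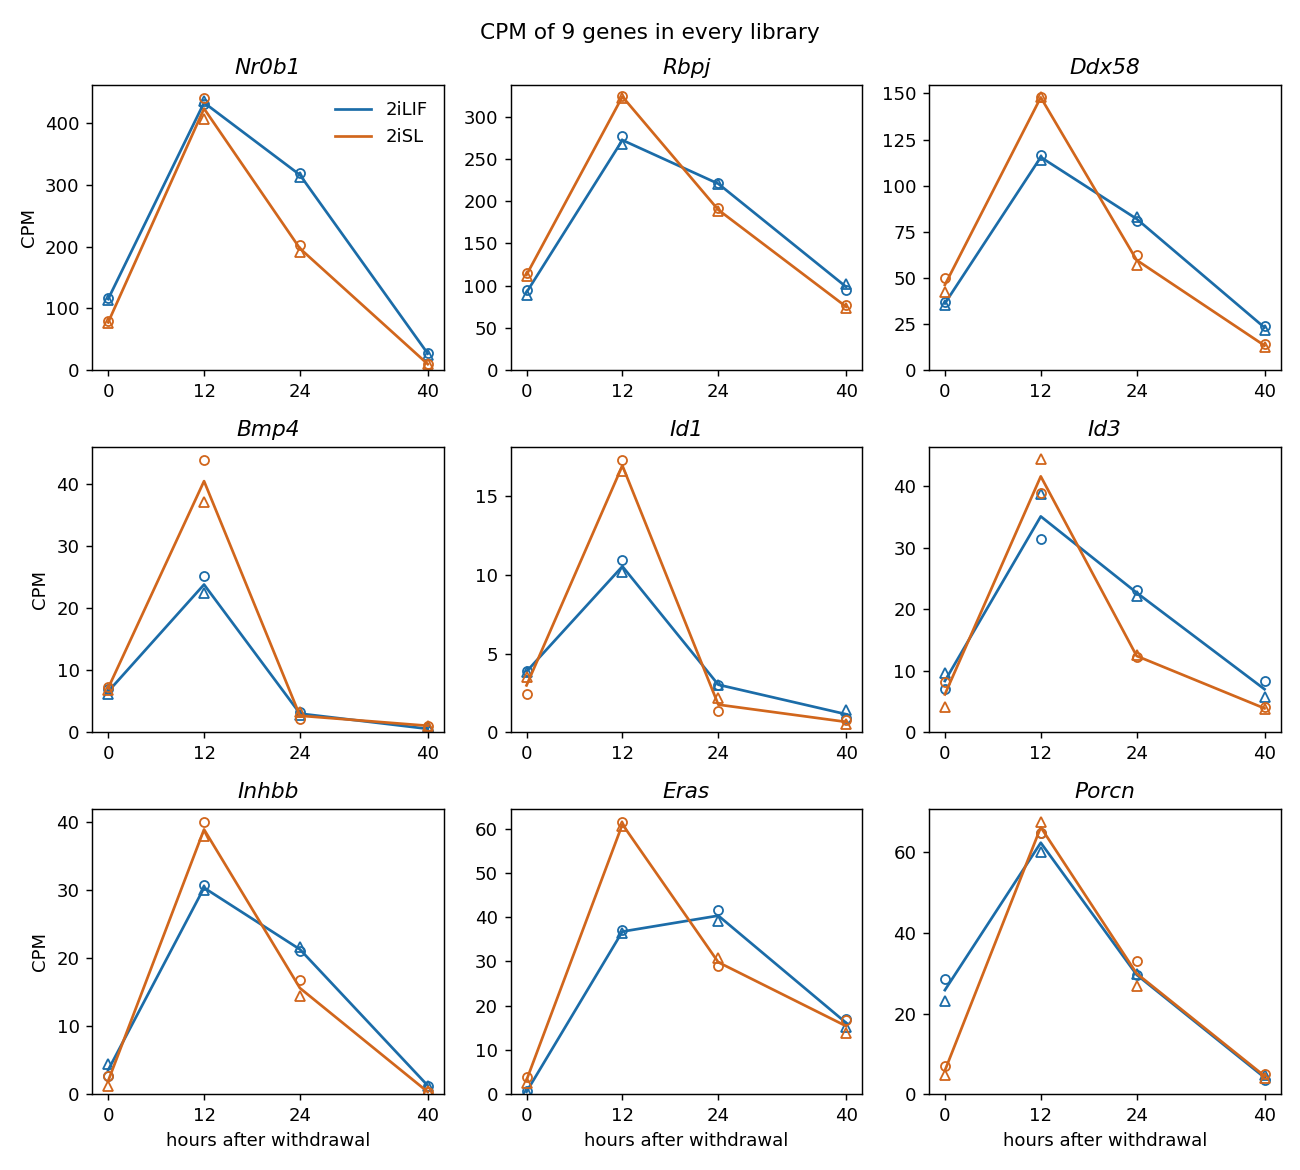
CPM (vertical, linear from 0) of 9 of the genes against hours after withdrawal, with circles for replicate 1, triangles for replicate 2 and lines through the group means, in blue for 2iLIF and orange for 2iSL. In 2iSL each gene falls from its 12 h value by 24 h, whereas Eras in 2iLIF stands slightly higher at 24 h (39.1 and 41.6 CPM) than at 12 h (36.4 and 37.1 CPM).

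The signalling genes (13 members) ran from secreted factors to intracellular relays. Bmp4, a ligand that induces Id genes in many cells, lies at chr14:46383525-46390669 and had 6.91 and 6.19 CPM at 0 h, 25.2 and 22.4 CPM at 12 h, 3.29 and 2.72 CPM at 24 h, and 0.255 and 0.836 CPM at 40 h in 2iLIF. In 2iSL it had 7.34 and 6.86 CPM at 0 h, 43.8 and 37.2 CPM at 12 h, 2.1 and 3.22 CPM at 24 h, and 1.08 and 1.01 CPM at 40 h. It kept the smallest share of its 12 h level at 24 h of all 69 genes, 12.6% in 2iLIF and 6.56% in 2iSL, and its values from 24 h on rest on few reads. At 24 h Bmp4 was already below its start, with log2 fold changes of -1.13 ± 0.28 (SE; edgeR adjusted p = 0.000205) in 2iLIF and -1.44 ± 0.25 (SE; edgeR adjusted p = 3.5e-07) in 2iSL. The 0 h libraries also entered the rule, so these p-values are not free of the choice of genes. The 12 h peak itself was higher in 2iSL, with a log2 difference of 0.76 ± 0.11 (SE; edgeR adjusted p = 1.4e-08) and no overlap of the libraries.

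Inhbb codes for the beta subunit of activin B. It had 2.7 and 4.42 CPM at 0 h, 30.7 and 29.9 CPM at 12 h, 21 and 21.6 CPM at 24 h, and 1.27 and 1.25 CPM at 40 h in 2iLIF. Cells from 2iSL had 2.74 and 1.17 CPM at 0 h, 39.9 and 37.9 CPM at 12 h, 16.8 and 14.4 CPM at 24 h, and 0.269 and 0.403 CPM at 40 h. The order of the media turned between 12 h and 24 h, from a log2 difference of 0.36 ± 0.10 (SE; edgeR adjusted p = 0.00494) to -0.48 ± 0.13 (SE; edgeR adjusted p = 0.00291), without overlap of libraries at either time. Neither of these calls for Inhbb held with DESeq2, and each was lost without 1 library, replicate 2 of 2iLIF at 12 h (0.33) or replicate 2 of 2iSL at 24 h (-0.35). Porcn, the enzyme that attaches the lipid Wnt ligands need for secretion, started from different levels, at 28.5 and 23.2 CPM in 2iLIF and 6.91 and 4.82 CPM in 2iSL. At 12 h it stood at 64.7 and 60.0 CPM in 2iLIF and 64.9 and 67.5 CPM in 2iSL, and at 24 h at 29.5 and 29.7 CPM and at 33 and 26.9 CPM, respectively. At 40 h it stood at 3.56 and 4.74 CPM in 2iLIF and 5.12 and 3.93 CPM in 2iSL. Porcn thus differed between the media at 0 h, with a log2 difference of -2.14 ± 0.17 (SE; edgeR adjusted p = 1.01e-20), and at 12 h the difference was 0.09 ± 0.08 (SE; edgeR adjusted p = 0.439).

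Eras, a Ras-like gene named for its expression in ES cells, was nearly unread at the start of 2iLIF. It had 0.674 and 0.442 CPM at 0 h, 37.1 and 36.4 CPM at 12 h, 41.6 and 39.1 CPM at 24 h, and 17.1 and 15.2 CPM at 40 h there. Its 2iSL values were 3.89 and 2.48 CPM at 0 h, 61.4 and 60.5 CPM at 12 h, 28.9 and 30.7 CPM at 24 h, and 16.9 and 13.9 CPM at 40 h. Ccnd2, coding for cyclin D2, had 2.36 and 0.885 CPM at 0 h, 26 and 30.3 CPM at 12 h, 29.9 and 27.5 CPM at 24 h, and 14.4 and 9.9 CPM at 40 h in 2iLIF, where 24 h and 12 h libraries overlapped. The 2iSL libraries held 0.576 and 0.73 CPM at 0 h, 43.6 and 40.5 CPM at 12 h, 19 and 14.8 CPM at 24 h, and 16.2 and 16.3 CPM at 40 h, with both 24 h libraries below both 12 h libraries. The step from 12 to 24 h differed between the media by -1.19 ± 0.13 (SE; edgeR adjusted p = 7.68e-13) for Eras and -1.36 ± 0.16 (SE; edgeR adjusted p = 8.44e-11) for Ccnd2. These p-values too use the 12 h libraries of the rule, in a comparison made after the values had been seen.

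Enzymes of cyclic nucleotide signalling made up 4 of the 13, a grouping made after the members were known. They were Adcy1, which makes cAMP, Pde4d, which breaks it down, Rapgef3, which senses it, and Pde9a, which breaks down cGMP. Rapgef3 stood at 1.52 and 2.36 CPM at 0 h in 2iLIF, at 9.57 and 11.3 CPM at 12 h and at 2.2 and 3.47 CPM at 24 h. Its 2iSL libraries held 2.74 and 1.75 CPM at 0 h, 20.5 and 25.6 CPM at 12 h and 4.3 and 3.74 CPM at 24 h. Pde4d had kept more of its peak by 24 h, with 47.6 and 48.2 CPM at 12 h and 36.8 and 31.5 CPM at 24 h in 2iLIF, and 57 and 57.5 CPM and then 38.3 and 35 CPM in 2iSL. Adcy1 had 16.9 and 15.4 CPM at 12 h in 2iLIF and 20.5 and 20.3 CPM in 2iSL. Pde9a stood at 29 and 22.7 CPM in 2iLIF and 25.1 and 24.3 CPM in 2iSL at 12 h, and at 23.3 and 22.5 CPM and 24.6 and 25.9 CPM at 24 h, with overlapping libraries of the 2 times in both media. Shisa2, which holds back Frizzled and FGF receptors on their way to the surface, had 32.5 and 32.1 CPM at 12 h in 2iLIF and 27.5 and 24.4 CPM in 2iSL. Htra1, a secreted protease, had 15.5 and 16.8 CPM at 0 h, 32 and 32.7 CPM at 12 h and 0.179 and 0.806 CPM at 40 h in 2iSL, a log2 fold change of 40 h against 0 h of -5.12 ± 0.29 that rests on few reads at 40 h. Etnk2 and Ccl25 had means at 12 h of 13.3 to 24.4 CPM.

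Genes of adhesion, membrane traffic and the cytoskeleton (15 members) included Septin1, the most abundant member per length. Septin1 had 204 and 203 CPM at 0 h, 429 and 445 CPM at 12 h, 392 and 405 CPM at 24 h, and 85.8 and 76.4 CPM at 40 h in 2iLIF. Cells from 2iSL had 138 and 138 CPM at 0 h, 353 and 359 CPM at 12 h, 269 and 272 CPM at 24 h, and 34.7 and 34.4 CPM at 40 h, lower at each of the 4 times without overlap of libraries. Epb41l4a, a FERM-domain gene, had 234 and 227 CPM at 12 h and 121 and 121 CPM at 24 h in 2iLIF, and 239.6 and 239 CPM and then 111 and 111 CPM in 2iSL. Csrp2, a LIM-domain gene, had 171 and 166 CPM at 12 h and 145 and 149 CPM at 24 h in 2iLIF, and 202 and 189 CPM and then 113 and 119 CPM in 2iSL. The order of the media turned for Csrp2 between 12 h (0.21 ± 0.05, log2) and 24 h (-0.37 ± 0.05).

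Mcam, an adhesion molecule, and Itga9, the integrin alpha 9 chain, were among the 8 of these 15 genes called higher in 2iSL at 12 h, with 2 called lower, where 14.8% of all genes tested were higher and 15.5% lower. Mcam stood at 88.2 and 90.4 CPM in 2iLIF and 143 and 147 CPM in 2iSL at 12 h, and at 24 h at 67 and 60.3 CPM in 2iLIF and 58 and 57.8 CPM in 2iSL. Itga9 had 0.843 and 0.59 CPM at 0 h, 20.9 and 23 CPM at 12 h, 9.06 and 12.2 CPM at 24 h, and 2.67 and 1.95 CPM at 40 h in 2iLIF. Its 2iSL values were 3.31 and 3.5 CPM at 0 h, 55.9 and 53.9 CPM at 12 h, 12.6 and 12.1 CPM at 24 h, and 7.63 and 7.76 CPM at 40 h. Itga9 showed the largest log2 difference between the media among members at 12 h, 1.32 ± 0.10 (SE; edgeR adjusted p = 8.48e-22), and at 24 h the difference was 0.20 ± 0.16 (SE; edgeR adjusted p = 0.363). Myo1f, a class I myosin, had 91.3 and 101 CPM at 12 h and 79.3 and 80.1 CPM at 24 h in 2iLIF, and 67.4 and 65.9 CPM and then 65.6 and 59.6 CPM in 2iSL. Clmp, Mymx, Exoc3l, Mical1, Coro2b, Igdcc3, Rab27a, Kifc3 and Upk1a made up the rest, with means at 12 h from 12.4 to 96.2 CPM. Igdcc3 was the 1 member that rose from 24 h to 40 h in 2iSL, from 12.6 and 15 CPM to 22.8 and 23.1 CPM.

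The transporters and channels (6 members) kept a median of 52.8% of the 12 h level at 24 h in 2iLIF and 39.6% in 2iSL. Ano1, a calcium-activated chloride channel, had 1.35 and 1.03 CPM at 0 h, 10.2 and 11.1 CPM at 12 h, 2.61 and 1.51 CPM at 24 h, and 0.509 and 0.418 CPM at 40 h in 2iLIF. In 2iSL it had 1.01 and 1.02 CPM at 0 h, 16.1 and 14.3 CPM at 12 h, 0.552 and 1.87 CPM at 24 h, and 0.449 and 1.01 CPM at 40 h, with 24 h libraries on either side of the start. Slc6a15, Slc5a1, Slc37a1 and Atp1b2 had means at 12 h from 11.3 to 39.9 CPM.

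Genes known from innate immunity numbered 6. Ddx58, the RNA sensor RIG-I, had 37.1 and 35.2 CPM at 0 h, 117 and 114 CPM at 12 h, 81 and 83 CPM at 24 h, and 24.2 and 22 CPM at 40 h in 2iLIF. Cells from 2iSL had 50.1 and 42.3 CPM at 0 h, 148 and 148 CPM at 12 h, 62.4 and 56.9 CPM at 24 h, and 14 and 12.7 CPM at 40 h. Ddx58 was higher in 2iSL at 12 h, with a log2 difference of 0.36 ± 0.06 (SE; edgeR adjusted p = 1.23e-07), and lower at 24 h, with -0.48 ± 0.07 (SE; edgeR adjusted p = 5.77e-09). Nlrc4, an inflammasome sensor, had 1.85 and 2.21 CPM at 0 h, 19.5 and 19.4 CPM at 12 h, 19.5 and 21 CPM at 24 h, and 4.71 and 3.76 CPM at 40 h in 2iLIF. Its 2iSL values were 2.88 and 4.09 CPM at 0 h, 31.2 and 33.9 CPM at 12 h, 25.5 and 18 CPM at 24 h, and 6.19 and 6.85 CPM at 40 h. In 2iSL both 24 h libraries of Nlrc4 lay below both 12 h libraries, which was not so in 2iLIF. Apol6, Cd37, Lgals3 and Gm8909 had means at 12 h from 15.4 to 29.7 CPM.

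The last 15 members share no role. Enox1 stood 19.1 times above its start at 12 h in 2iLIF, with 8.26 and 6.49 CPM at 0 h, 138 and 143 CPM at 12 h, 136 and 131 CPM at 24 h, and 39.7 and 40.6 CPM at 40 h. The 2iSL libraries held 9.21 and 6.71 CPM at 0 h, 199 and 195 CPM at 12 h, 128 and 128 CPM at 24 h, and 39.1 and 39 CPM at 40 h. Enox1 was higher in 2iSL at 12 h (0.48 ± 0.05, log2), whereas at 24 h the difference, -0.08 ± 0.05 (SE; edgeR adjusted p = 0.236), did not pass the test. Dusp27 had 48 and 45.1 CPM at 0 h, 148 and 156 CPM at 12 h, 171 and 148 CPM at 24 h, and 59.4 and 56.9 CPM at 40 h in 2iLIF. In 2iSL it had 74.3 and 65.2 CPM at 0 h, 228 and 237 CPM at 12 h, 198 and 201 CPM at 24 h, and 56.2 and 53.6 CPM at 40 h, higher at 0 h, 12 h and 24 h. Pnp, the purine nucleoside phosphorylase, had 122 and 119 CPM at 12 h and 86.8 and 83.9 CPM at 24 h in 2iLIF, and 149.7 and 136 CPM and then 69.3 and 68.9 CPM in 2iSL. Rbm20, a splicing regulator, had 3.54 and 2.65 CPM at 0 h and 25.7 and 24.1 CPM at 12 h in 2iLIF, and 3.74 and 3.06 CPM and then 26.3 and 26.3 CPM in 2iSL. Rsph4a, a radial spoke gene of motile cilia, had 0.674 and 0.737 CPM at 0 h and 17.3 and 14.6 CPM at 12 h in 2iLIF, and 1.58 and 0.876 CPM and then 16.3 and 11.9 CPM in 2iSL. Dcaf12l1, Gm19443, Mpped2, Aard, Pirt, Gfod1, Zmat4, B3galnt1, Catip and Ccdc85a had means at 12 h from 10.0 to 70.5 CPM. The role groups were drawn up after the members were known.

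The comparison of the media at 24 h is the one whose libraries the rule did not use. Of the 69 genes, 34 were lower in 2iSL than in 2iLIF and 4 were higher, where 31.1% of all 14288 genes tested were called, 17% lower and 14.1% higher. The median log2 difference was -0.33 over the 69 and -0.01 over all genes tested. Among the 8948 genes with at least 10 CPM at 12 h in both media, 22.8% were lower and 15% higher. After Nr0b1, the smallest p among the lower genes belonged to Septin1 (-0.59 ± 0.04, log2), Phf6 (-0.54 ± 0.06) and Apol6 (-1.66 ± 0.23). The 4 higher genes were Clmp (0.63 ± 0.09), Dusp27 (0.30 ± 0.05), Catip (0.57 ± 0.18) and Slc5a1 (0.41 ± 0.16). Without replicate 1 of 2iLIF at 24 h the lower genes were 26 and the higher ones 2, with Catip and Slc5a1 no longer called. Without replicate 1 of 2iSL at 24 h, the library with most ribosomal reads, 31 were lower and 4 higher. Of the 14 transcription and chromatin regulators 9 were lower at 24 h, and of the 15 adhesion and cytoskeleton genes 9 were lower and 1 higher. Some lists of genes outside the 69 showed this lean too, and others did not. At 24 h 11 of 14 naive factors were lower in 2iSL and 0 higher, and 7 of 10 heat shock genes lower and 0 higher. Of 12 Nodal and TGF-beta genes 8 were lower and 1 higher, and of 14 genes of the 2-cell-like state 8 and 0. Among 14 p53 targets 2 were lower and 6 higher, and among 21 ERK response genes 5 and 7. The counts were 3 and 4 for 15 formative factors, 0 and 3 for 10 replication-dependent histones, and 0 and 0 for 59 small RNAs.

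At 12 h the counts leaned the other way. There 34 of the 69 genes were higher in 2iSL and 11 lower, where 30.3% of all genes tested were called, 14.8% and 15.5%, with a median log2 difference of 0.24 over the 69 and 0.00 over all genes. The smallest p among the higher genes belonged to Itga9, Dusp27 (0.61 ± 0.05), Mcam (0.70 ± 0.06) and Enox1 (0.48 ± 0.05), and the lower ones included Septin1 (-0.30 ± 0.04), Myo1f (-0.53 ± 0.07) and Phf6 (-0.35 ± 0.05). The 12 h libraries also entered the rule, though not as a difference between media. Of the 34 genes higher in 2iSL at 12 h, 12 were lower at 24 h, 3 were still higher and 19 were not called. How many of all genes tested change sides was not counted, so these numbers only describe the members. The 12 that changed sides were Ccnd2, Csrp2, Ddx58, E2f2, Eras, Exoc3l, Gm19443, Inhbb, Kifc3, Pnp, Rbpj and Stat4. Both calls held under all alternatives run, DESeq2 and each left-out library among them, for 6 of the 12, Ccnd2, Csrp2, Ddx58, Eras, Pnp and Rbpj. The other 6 lost a call under at least 1 of them. None of the 11 genes lower at 12 h was higher at 24 h, 9 were lower again and 2, Atp1b2 and Epas1, were not called.

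**Figure D4:**
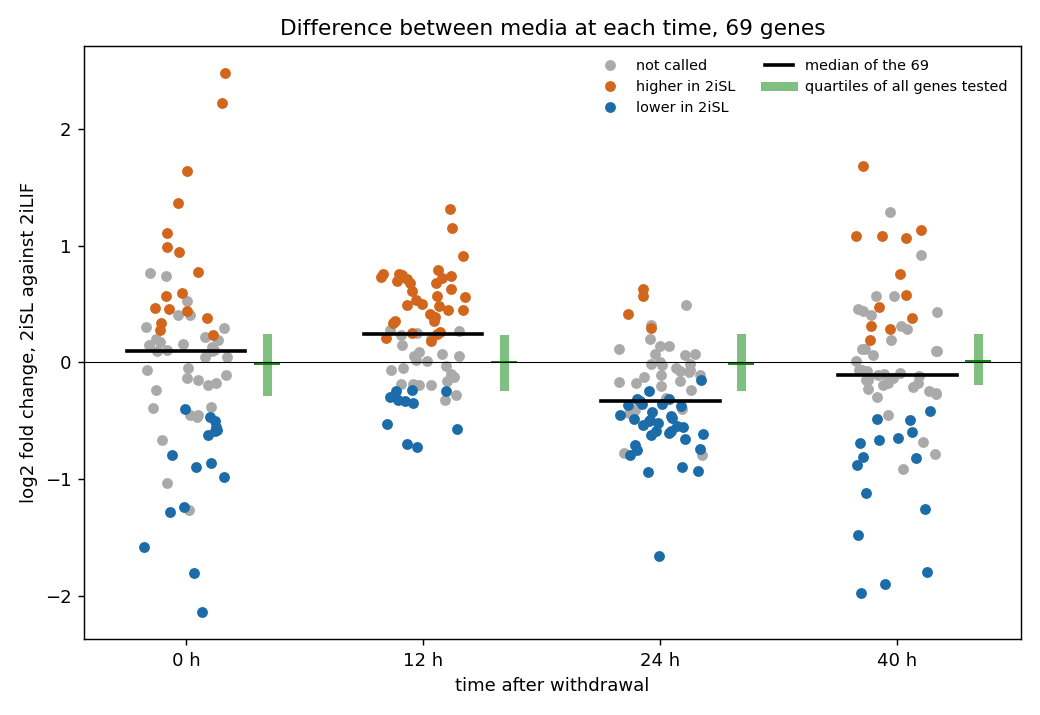
log2 fold change of 2iSL against 2iLIF (vertical) at each time (horizontal), 1 point per gene for the 69 genes, coloured by the edgeR call, with black lines at the median of the 69 and green bars for the quartiles and median of all genes tested. The median of the 69 is 0.24 at 12 h and -0.33 at 24 h, while that of all genes tested stays within 0.02 of 0.

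The same contrast at the start and the end was more even. At 0 h 17 of the 69 genes were higher and 16 lower in 2iSL, where 33% of all genes tested were called, 14.6% and 18.4%. At 40 h 12 were higher and 16 lower, against 27.3% called, 13.9% and 13.4%. The number called at 40 h fell whichever 1 library was left out, as it also did at 0, 12 and 24 h. Without replicate 1 of 2iSL at 40 h 6 genes were higher, without replicate 2 of either medium 7, and without replicate 1 of 2iLIF 10 genes were lower. The number called in either direction fell from 28 to 17 without replicate 1 of 2iSL at 40 h.

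The difference between the media in the step from 12 h to 24 h was tested after the values had been seen, and it uses the 12 h libraries of the rule. It was negative, a steeper decline in 2iSL, in 41 of the 69 genes and positive in 1, Epas1, where 17.1% of all genes tested were called, 9.87% and 7.21%. The median was -0.55 on the log2 scale. Besides Nr0b1, the decline was steeper in 2iSL for Ddx58 (-0.84 ± 0.09), Mcam (-0.86 ± 0.10) and Exoc3l (-0.89 ± 0.12). A negative difference was not particular to the members. It was called negative in 9 and positive in 0 of 14 naive factors, and in 6 and 0 of 10 heat shock genes. Among 15 formative factors 8 were negative and 2 positive, whereas among 14 p53 targets 0 were negative and 6 positive. For Epas1 the difference was 0.24 ± 0.07 (SE; edgeR adjusted p = 0.0139), and it was not called with DESeq2, nor without replicate 2 of 2iLIF at 12 h (0.22), replicate 1 of 2iLIF at 24 h (0.22) or replicate 2 of 2iSL at 12 h (0.23). Counted over members, 0 were positive without either of the latter 2 libraries, and 2 without replicate 1 of 2iSL at 24 h.

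The change from 0 h to 24 h shares the 0 h libraries with the rule, so its direction is partly set by the choice of genes. In 2iLIF 58 of the 69 genes were higher at 24 h than at 0 h and 1 was lower, where 58.8% of all genes tested were called, 29.2% higher and 29.6% lower. In 2iSL 53 were higher and 5 lower, against 64.4% called, 32.4% and 32%. The 5 were Bmp4, Id1, Htra1, Etnk2 and Slc6a15, and they were 3 without replicate 2 of 2iSL at 0 h or replicate 1 of 2iSL at 24 h. From 24 h to 40 h, which shares the 40 h libraries with the rule, 68 genes were lower at 40 h in 2iLIF by edgeR, where 46.7% of all genes were called, 24.5% down and 22.2% up. The 1 gene left over was Dcaf12l1, not called. In 2iSL 63 were lower and 1, Igdcc3, higher, against 50.5% called, 24.6% and 25.9%.

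The exit effect at 24 h, as 24 h against 0 h, differed between the media in 25 of the 69 genes, against 20.8% of all genes tested. This difference uses the 0 h libraries, which entered the rule in both media. The effect was larger in 2iSL for 7 genes, against 9.77%, and smaller for 18, against 11%. Among genes with at least 10 CPM at 12 h in both media, 11.8% were larger and 15.7% smaller. Porcn had the largest positive difference, 2.13 ± 0.21 (SE; edgeR adjusted p = 1.05e-15), and Htra1 a difference of -2.05 ± 0.29 (SE; edgeR adjusted p = 4.19e-09). The 24 h change of Htra1 was 0.80 ± 0.23 in 2iLIF, a call lost without replicate 1 of 2iLIF at 0 h (0.55), and -1.25 ± 0.17 in 2iSL. Without replicate 2 of 2iSL at 0 h, 4 genes had a larger effect in 2iSL.

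The 69 genes did not return to one common level. Both the 0 h and the 40 h levels entered the rule, so these counts and values describe the chosen genes and no p-value is given for them, although the rule did not set which of the 2 times was higher. The edgeR calls below only sort the genes and are not a test of the group. By edgeR's threshold 18 genes were higher and 38 lower at 40 h than at 0 h in 2iLIF, where 68.8% of all genes tested were called, 34.1% and 34.7%. In 2iSL 16 were higher and 35 lower, against 70.5% called, 35.3% in each direction. The direction was the same in both media for 40 genes, a count that was not made over all genes. Of these 27 ended below the start, Nr0b1, Bmp4, Id1, Inhbb, Sox21, Septin1, Ddx58 and Htra1 among them. The 13 that ended above it included Aard, Ccdc85a, Ccnd2, Enox1, Eras, Exoc3l, Gfod1, Itga9, Nlrc4, Pde9a, Phf6 and Pirt. The media went opposite ways for 2 genes, Dusp27 (log2 0.26 ± 0.08 in 2iLIF, a call lost without replicate 2 of 2iLIF at 0 h, and -0.42 ± 0.07 in 2iSL) and Atp1b2 (-0.81 ± 0.23 and 0.58 ± 0.25). The rise of Atp1b2 in 2iSL was not called with DESeq2 or without either 0 h replicate or replicate 1 at 40 h of 2iSL. Of the 6 innate immunity genes 5 ended lower in each medium, all but Nlrc4.

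**Figure D5:**
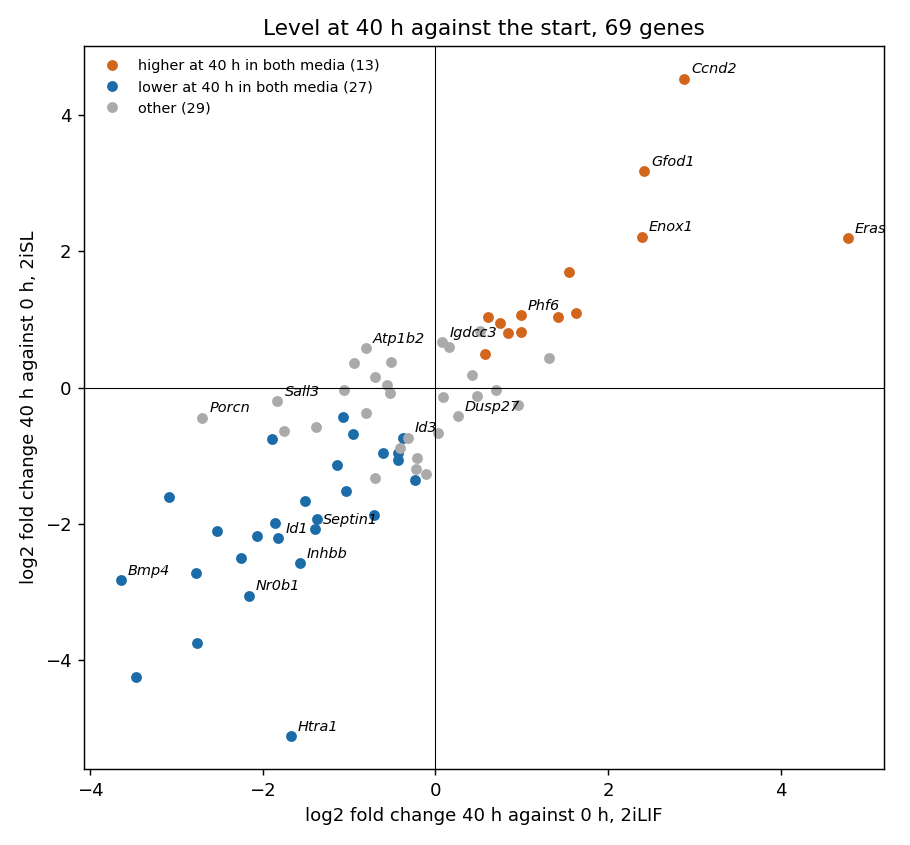
log2 fold change of 40 h against 0 h in 2iLIF (horizontal) and 2iSL (vertical), 1 point per gene for the 69 genes, coloured by whether edgeR called it higher in both media (13), lower in both (27) or otherwise (29). Both times entered the rule, so the colours are a description. Points run from -3.64 to 4.77 in 2iLIF and from -5.12 to 4.53 in 2iSL, values that rest on few reads at either end.

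Other genes of the pathways around these members were counted in the contrasts that chose the members. Of the 13 genes in a list of Nr0b1 and its partners, 10 others could be tested. At 12 h against 0 h 5 of the 10 rose and 3 fell in 2iLIF, where 44.7% of all genes were called, 21% up and 23.7% down, and 4 rose and 3 fell in 2iSL, against 51.2% called, 25.3% and 25.9%. From 12 h to 40 h 1 rose and 7 fell in 2iLIF (62.5% of all genes called, 31.3% and 31.1%), and 1 rose and 8 fell in 2iSL (66%, 33.4% and 32.5%). The nuclear receptor genes Nr5a2 and Esrrb fell already by 12 h, Nr5a2 from 111 to 82.1 CPM and Esrrb from 892 to 653 CPM in 2iLIF, while Nr0b1 was at its height. A relation of these 2 genes to Nr0b1 was not tested, and more of the list rose than fell at 12 h. Of the BMP and Id list, Bmp4, Id1 and Id3 were members and 5 others could be tested. At 12 h 1 of the 5, the BMP pseudoreceptor Bambi, rose and 2, Id4 and Msx2, fell in 2iLIF, and 2, Id2 and Id4, fell in 2iSL. From 12 h to 40 h 3 of the 5 fell in 2iLIF and 4 in 2iSL. Id4 went from 13.1 to 5.20 CPM within 12 h in 2iLIF and from 13.9 to 5.13 CPM in 2iSL, opposite to Id1 and Id3.

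None of the other 9 lists held a member. Their counts stand against the same shares of all genes, 44.7% called in 2iLIF and 51.2% in 2iSL at 12 h, and 62.5% and 66% from 12 h to 40 h. Of 21 ERK response genes 12 rose and 2 fell at 12 h in 2iLIF, and 12 rose and 6 fell in 2iSL. From 12 h to 40 h 12 rose and 6 fell in 2iLIF, and 11 and 6 in 2iSL. Naive factors (14) showed 2 rises and 11 falls at 12 h in 2iLIF, and 2 and 10 in 2iSL, and formative factors (15) 14 rises and 1 fall in each. Nodal and TGF-beta genes (12) showed 6 rises and 2 falls in 2iLIF, and 4 and 4 in 2iSL. The p53 targets (14) showed 6 rises and 6 falls, and 4 and 7. Heat shock genes (10) showed 6 rises and 1 fall at 12 h in each medium. The genes of the 2-cell-like state (14), whose near-identical copies make their counts uncertain, showed 2 rises and 1 fall, and 1 and 1. Replication-dependent histones (10) showed 1 call, a rise in 2iSL, and small RNAs (59) 1 rise in 2iLIF and 2 falls in 2iSL.

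Other features that the rule had not used were described without a test. Of the 68 members with coordinates 6, or 8.82%, lie on the X chromosome, among them Nr0b1, Phf6, Porcn, Eras and Dcaf12l1, against 3.70% of 13994 genes tested with coordinates. The median gene length in the deposited table was 3361 bases for the members and 2779 for all genes tested.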

How the data were processed

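TRIzol RNA went into libraries of the TruSeq Stranded mRNA kit, per the labels' protocols. The submitters' processing notes name fastp, STAR, featureCounts and mm10, with no versions given in the sources used here. The authors deposited whole-number counts per gene for 27179 genes and 16 libraries, not normalized, with gene lengths, per the file headers; 1049 genes had no symbol. CPM here are counts over the library total. edgeR 4.0.16 (R 4.3.3) kept 14288 genes with filterByExpr (minimum count 10, total 15), scaled libraries by TMM and fitted all 8 groups in 1 quasi-likelihood model (8 residual degrees of freedom, biological coefficient of variation 3.19%). Tests were two-sided with Benjamini-Hochberg adjustment over all genes in each comparison, with 0.05 as the threshold for a call. Each standard error was derived from the F statistic. On simulated data with 200 of 14288 genes changed, 90% were recovered in 24 h against 0 h in 2iSL, 87.5% between media at 24 h and 82.5% in the difference of the 24 h effects, with 15, 4 and 8 unchanged genes called. The planted changes were at least 2-fold, in 2iSL at 24 h alone, with no other difference between groups. The rates therefore do not speak to smaller differences.

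The members, the 11 pathway lists and the 6 marker lists were chosen with earlier results of these data known. Genes named were Nr0b1, the 20 members highest at 12 h, the 10 largest peaks, those next to the threshold, the 4 smallest p in each direction between media at 12 and 24 h, the 4 largest and 4 smallest shares of the rise left at 24 h, and members on a list. Other members were named after their values were seen, to account for the group; 2 members are counted but not reported here by name, and the plot by library leaves them out. Alternatives were DESeq2 1.42.0, other scalings and filters, a replicate block, and leaving out each library.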

Additional observations from a re-analysis of the deposited data

Results flagged for a closer look

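Some of the members changed differently in the 2 media, by an interaction term in the edgeR model. The 24 h against 0 h effect differed in 25 of the 69 genes, where 20.8% of all genes tested differed, and 27.6% of those with at least 10 CPM at 12 h in both media. That effect uses the 0 h libraries, which entered the rule. On the log2 scale, 2iSL minus 2iLIF, the difference was 2.13 for Porcn, 1.43 for Myo1f, 1.11 for Atp1b2 and 0.39 for Epas1. It was -2.05 for Htra1, -0.83 for Csrp2, -0.82 for Ddx58 and -0.52 for Rbpj. Such a difference can lie in the 0 h level. Porcn had means of 25.8 CPM in 2iLIF and 5.86 in 2iSL at 0 h, and 29.6 and 29.9 CPM at 24 h. Myo1f had 19.2 and 5.57 CPM at 0 h, and 79.7 and 62.6 at 24 h. Atp1b2 had 8.60 and 3.55 CPM, and then 11.4 and 10.3. Htra1, Csrp2, Ddx58 and Rbpj were higher in 2iSL at 0 h and lower at 24 h. The step from 12 h to 24 h, compared after the values had been seen, differed in 42 of the 69 genes, against 17.1% of all genes tested and 23.3% of those with at least 10 CPM. It uses the 12 h libraries that chose the members. There the difference was 0.24 for Epas1, -0.67 for Nr0b1, -0.84 for Ddx58, -0.86 for Mcam and -1.19 for Eras. Maintenance serum and exit base medium changed together between the media and cannot be told apart.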

How the results depend on the processing

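The number of members depends on the fold of the rule: 151 genes met a fold of 1.5 and 22 a fold of 3. Requiring each library at 12 h to pass, or a 12 h mean above 24 h too (chosen after seeing the data), left 50 and 57. Leaving out single libraries, or all of 1 replicate number, gave 64 to 71. In the fits, a group left with 1 library is assumed to vary like the others. No called difference of a member reversed under the alternatives run: of the members' values over the 12 comparisons, 9227 stayed on their side of the threshold, 347 lost a call and 74 gained one. DESeq2's Wald test called fewer genes: over all genes 3115, 2668, 2729 and 2010 between media at 0, 12, 24 and 40 h (edgeR 4710, 4334, 4439 and 3897), 1789 for the difference of the 24 h effects (2966) and 1240 for the difference of the steps (2440). Of the members it called 3 lower at 24 h against 0 h in 2iSL, and between media 7 lower at 12 h, 2 higher at 24 h, 7 higher at 40 h and 0 with a positive step difference. With 1 library left out, members lower at 24 h against 0 h in 2iSL were 3 to 5, higher between media at 24 h 2 to 4, at 40 h called 17 to 21, higher 6 to 9 and lower 10 to 14, larger 24 h effects in 2iSL 4 to 7, and positive step differences 0 to 2. All genes called at 40 h between media were 2240 to 3245, the lowest without replicate 1 of 2iLIF at 40 h. The cause was not tested. No pairing by replicate number showed across all genes tested, where deviations of the 28 same-numbered group pairs correlated at -0.05 to 0.03. A correlation over all genes cannot say how the replicates were made, and a pairing that touched few genes might not show. A replicate block moved no count of members by more than 1, with 34 lower between media at 24 h and 42 lower in the step difference, and made Phf6 called there (-0.19).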
